A study of Mus musculus with 8 samples.

Results

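The tumour necrosis factor (TNF) ligand and receptor superfamily was examined in gallbladder RNA of obese mice that lack functional leptin, after leptin or saline. Members were taken by gene symbol. They were all probe sets annotated to 1 symbol starting with Tnfsf or Tnfrsf, apart from 1 receptor symbol not analysed here, together with Tnf, Lta, Ltbr, Fas, Fasl, Cd27, Cd40, Cd40lg, Cd70, Eda, Edar, Eda2r and Ngfr. This gave 39 genes of 18193 with a single-symbol probe set, read by 68 of the 45101 probe sets of the array. Of these genes 13 encode ligands and 25 encode receptors, and 1, Tnfsf13os, is a transcript from the strand opposite the ligand gene Tnfsf13. A further 3 probe sets carried several symbols of the family and were left unnamed, which leaves Tnfsf12, Tnfsf13 and part of the Tnfrsf22 and Tnfrsf23 signal out of the values below.

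All mice were female B6.V-Lep ob animals, homozygous for the obese mutation of the leptin gene, and were on chow. The leptin group (12 mice) received recombinant mouse leptin into the peritoneum each day for 4 weeks at 5 µg per g body weight, and the saline group (12 mice) received saline. All were 12 weeks old and fasted overnight when the gallbladder was removed. RNA came from pools of 3 gallbladders, so there were 4 leptin pools (numbered 5 to 8) and 4 saline pools (numbered 1 to 4), each on 1 Affymetrix mouse expression array. Nothing pairs a leptin pool with a saline pool. No wild-type animals were analysed here, so the comparison is of leptin replacement within mutant mice.

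Ligands of this superfamily are mostly trimeric membrane proteins, many of which can also be shed, and they cluster their receptors on the target cell. Receptors with a death domain can recruit Fadd and caspase 8, and receptors that bind TRAF adaptors switch on the NF-kB and JNK pathways. In barrier tissues the family is known for inflammation, epithelial cell death, the build-up of lymphoid tissue and the survival of B cells.

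The values are MAS5 signals, intensities on a linear scale, which as deposited had a 2% trimmed mean of 250 on every array. A signal under 46.0 was taken as not above background. This limit is the 95th percentile of 27 control probe sets for bacterial sequences. No scale sets 1 probe set against another, so levels are compared between pools only. Markers of gallbladder epithelium and of smooth muscle were above background, as for the labelled tissue, and so were 4 hepatocyte markers, whose summed signal was 57700 to 63210 in leptin pools and 45920 to 69950 in saline pools, with overlap. Median signal was 94.0 to 107 in leptin pools and 77.8 to 87.3 in saline pools, without overlap. As a sign of RNA quality, the ratio of actin signal at the 3' end over the 5' end was 1.67 to 2.17 in leptin pools and 1.498 to 1.68 in saline pools. Fits with this ratio as a covariate are given where they changed the call of a family member or ended that of a pathway gene. The part of median signal was not tested beyond fits that centred the array medians, which are given at the end.

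The receptor gene Tnfrsf12a was about 5-fold lower with leptin, the ligand gene Tnfsf10 was more than 2-fold higher, and smaller changes were found for Ltbr (lower) and Tnfrsf1b (higher). With each pool left out in turn, the Ltbr call was lost in 4 of 8 fits and the Tnfrsf1b call in all 8. A second tested Tnfrsf1b probe set was fitted below 0 and did not pass. The opposite-strand transcript Tnfsf13os was about 3-fold higher on a probe set too dim to be tested without leptin pool 5, 6 or 8. Its other probe set was not tested and overlapped between treatments. Of the 68 probe sets, 22 were bright enough to be tested, for 16 genes, and 7 passed an adjusted p of 0.05 by limma, with 4 higher and 3 lower. They belong to 5 genes. Over the array, 6.93% of tested probe sets passed, 3.54% higher and 3.39% lower. Counted by the brightest probe set of each gene, 5 of the 16 tested family genes passed, against 8.27% of all tested genes. For these genes 3 rose and 2 fell, where 4.29% of all tested genes rose and 3.98% fell. In 5 of the 22 every leptin pool was above every saline pool and in 3 every one was below, against 8.12% and 7.40% of all tested probe sets (15.5% in either direction). Of those above, Tnfsf10 1439680_at, Tnfsf13b 1460255_at and Tnfsf13os 1442123_at reached the brightness filter only through their leptin pools. The counts in this paragraph include them. The median log2 fold change, leptin minus saline, was 0.29 over the 22 tested members and 0.039 over all tested probe sets, and 18 of the 22 were fitted above 0, against 54.9% over the array. These sets differ in brightness. Only 7 of the 22 passed a filter at the 75th percentile, where the median over the array was -0.050. The part of brightness in the members' median was not tested.

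**Figure D1:**
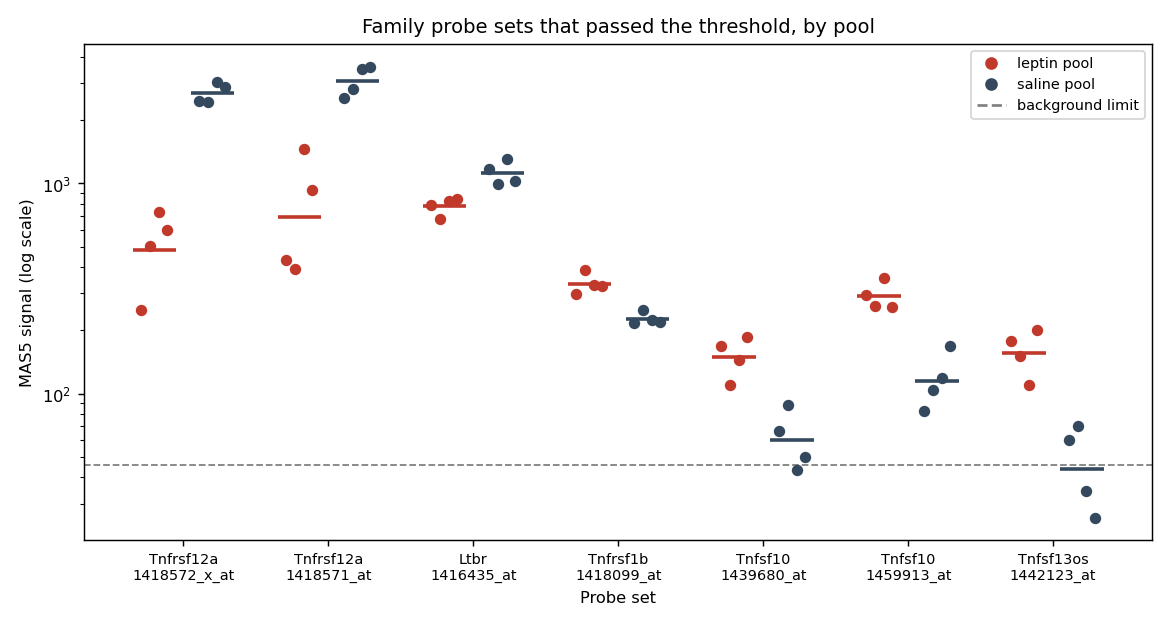
MAS5 signal on a log scale (vertical axis) of the 7 family probe sets that passed an adjusted p of 0.05, for each of 4 leptin pools (red, left) and 4 saline pools (dark, right). Each point is 1 pool, bars are means of the log2 signals, and the dashed line is the background limit of 46.0. In all 7 the leptin and saline pools lie apart.

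Among the ligands, Tnfsf10, which encodes TRAIL, the ligand of the death receptor encoded by Tnfrsf10b, was the only gene of the 4 tested with a probe set that passed. Its brightest probe set, 1459913_at, had signals of 295, 263, 357 and 259 in leptin pools 5 to 8 and of 82.7, 105, 119 and 168 in saline pools 1 to 4. All leptin pools lay above all saline pools. The log2 fold change was 1.28 ± 0.21 (SE, n = 4 pools each), a 2.43-fold rise (limma adjusted p = 0.0036). It passed without any single pool and in every other fit that tested it, with adjusted p up to 0.0473.

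A second Tnfsf10 probe set, 1439680_at, gave 169.6, 109.9, 145 and 185 in leptin pools and 66.7, 88.7, 43.6 and 50.2 in saline pools. Again no leptin pool overlapped a saline pool, although saline pool 3 lay under background. The rise was 1.21 ± 0.27 on the log2 scale (limma adjusted p = 0.0203). This second call was lost without saline pool 4, leptin pool 5 or leptin pool 8 (limma adjusted p up to 0.0659), under quantile scaling (0.0674) and with the actin covariate (0.196). The log2 fold changes in these fits were 1.13, 1.15, 1.11, 0.98 and 1.08. The third probe set, 1420412_at, was under background in all saline pools and in 3 leptin pools and was not tested. The receptor gene Tnfrsf10b could not be followed beside its ligand, because its brighter probe set lay between 6.20 and 54.6 in leptin pools and between 20.7 and 42.9 in saline pools, above background only in leptin pool 5.

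Tnfsf13b encodes BAFF, the factor on which the survival of mature B cells depends. Its probe set 1460255_at had signals of 126, 137, 141 and 94.7 in leptin pools and of 57.0, 66.9, 74.1 and 77.6 in saline pools. The leptin pools all lay above the saline pools, but the log2 fold change of 0.78 ± 0.24 did not pass (limma adjusted p = 0.0699). It passed only without the mean-variance trend (limma adjusted p = 0.0258). The brighter probe set 1445251_at overlapped between treatments, at 97.8 to 180 in leptin pools and 88.2 to 118 in saline pools, with a log2 fold change of 0.39 ± 0.23 (limma adjusted p = 0.336).

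The receptors for this B cell arm were dim. Tnfrsf13c, the BAFF receptor of B cells, had 123, 129, 141 and 119 in leptin pools and 77.4, 14.1, 9.80 and 80.9 in saline pools, with saline pools 2 and 3 under background. All leptin pools were above all saline pools. Its mean over the arrays was under the brightness filter, so it was not tested, and in the fit without that filter the log2 fold change of 1.70 had an adjusted p of 0.112 by limma. Tnfrsf13b, which encodes the receptor TACI, was at 16.1 to 86.8 in leptin pools and 4.50 to 31.6 in saline pools, under background in all 4 saline pools. Cd40, through which T cells activate B cells, had 3 probe sets, of which the brightest was at 10.6 to 126 in leptin pools and 7.40 to 57.0 in saline pools. Its ligand gene Cd40lg was at 23.1 to 115 in leptin pools and 83.2 to 164 in saline pools.

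Of 8 B and plasma cell markers on the array, 5 were tested and 4 rose, of which Jchain reached the brightness filter only through its leptin pools. Their summed signal was 3315 to 7086 in leptin pools and 383 to 630 in saline pools, without overlap, and none was under background in all 8 pools. The plasma cell gene Jchain made up most of this sum in leptin pools, at 2045 to 5625, and a small part of it in saline pools, at 45.7 to 82.3 (54.7-fold). The other 3 that rose, Ms4a1, Mzb1 and Cd22, were 2.57-fold, 2.77-fold and 2.03-fold higher, while Blk did not pass and Pax5, not tested, overlapped. Cd79a and Cd79b, also not tested, had every leptin pool above every saline pool, and Cd79a was under background in all 4 saline pools. In the fit without the brightness filter their log2 fold changes were 3.27 and 2.05 (limma adjusted p = 3.9e-04 and 0.0028). The part of B cell number in the values of Tnfsf13b, Tnfrsf13b and Tnfrsf13c was not tested, and in whole-organ RNA more cells of a type and more RNA per cell cannot be told apart.

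Tnfsf13os had 178, 151, 111 and 201 in leptin pools and 60.2, 70.3, 34.6 and 25.7 in saline pools on probe set 1442123_at. The treatments did not overlap, and saline pools 3 and 4 were under background. The log2 fold change was 1.64 ± 0.32, a 3.12-fold rise (limma adjusted p = 0.0097). Without leptin pool 5, 6 or 8 its mean fell under the brightness filter and it was not tested. With the actin covariate the call was lost (1.33, limma adjusted p = 0.164). Its other probe set, 1445227_at, was at 5.00 to 47.1 in leptin pools and 4.40 to 44.2 in saline pools.

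The founding ligand gene of the family, Tnf, was close to background. It had 73.2, 146, 34.1 and 26.9 in leptin pools and 15.1, 39.6, 27.3 and 53.3 in saline pools. Leptin pool 6 was the highest, pools overlapped, and the gene was too dim to be tested. Lta, the lymphotoxin alpha gene, was at 81.8 in leptin pool 6 and under background in the other 7 pools. Fasl, the death ligand of cytotoxic lymphocytes, overlapped on both of its probe sets and was at 2.60 to 79.3 in leptin pools and 6.70 to 60.8 in saline pools.

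Ltb, the partner of Lta in the membrane trimer that binds the Ltbr receptor, is outside the symbol rule and was on the list of pathway genes. It had 201, 142, 204 and 178 in leptin pools and 30.9, 6.60, 10.9 and 4.90 in saline pools. All 4 saline pools were under background, and the gene was at least 3.46-fold higher with leptin, where the saline pools were set at the background limit (each pool at the higher of its own value and the limit). It did not reach the brightness filter, and in the fit without that filter its limma adjusted p was 9.9e-04.

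The T cell ligands gave no call. Tnfsf4, the OX40 ligand, was tested and had a log2 fold change of 0.25 ± 0.26 (limma adjusted p = 0.586). Cd70, Tnfsf8 and Tnfsf9, which encode ligands of Cd27, CD30 and 4-1BB on lymphocytes, were not tested, with signals between 7.80 and 92.4 over all pools. Tnfsf11, which encodes RANKL, and Tnfsf14, which encodes LIGHT, were under background in all 8 pools on every probe set. Eda, the ectodysplasin gene of hair and gland development, had 5 probe sets, of which the brightest was tested, at 0.36 ± 0.27 (limma adjusted p = 0.449). Another of these 5, 1419596_at, had at most 12.7 in leptin pools and was at 16.9 to 72.8 in saline pools without overlap, above background only in saline pool 3.

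**Figure D2:**
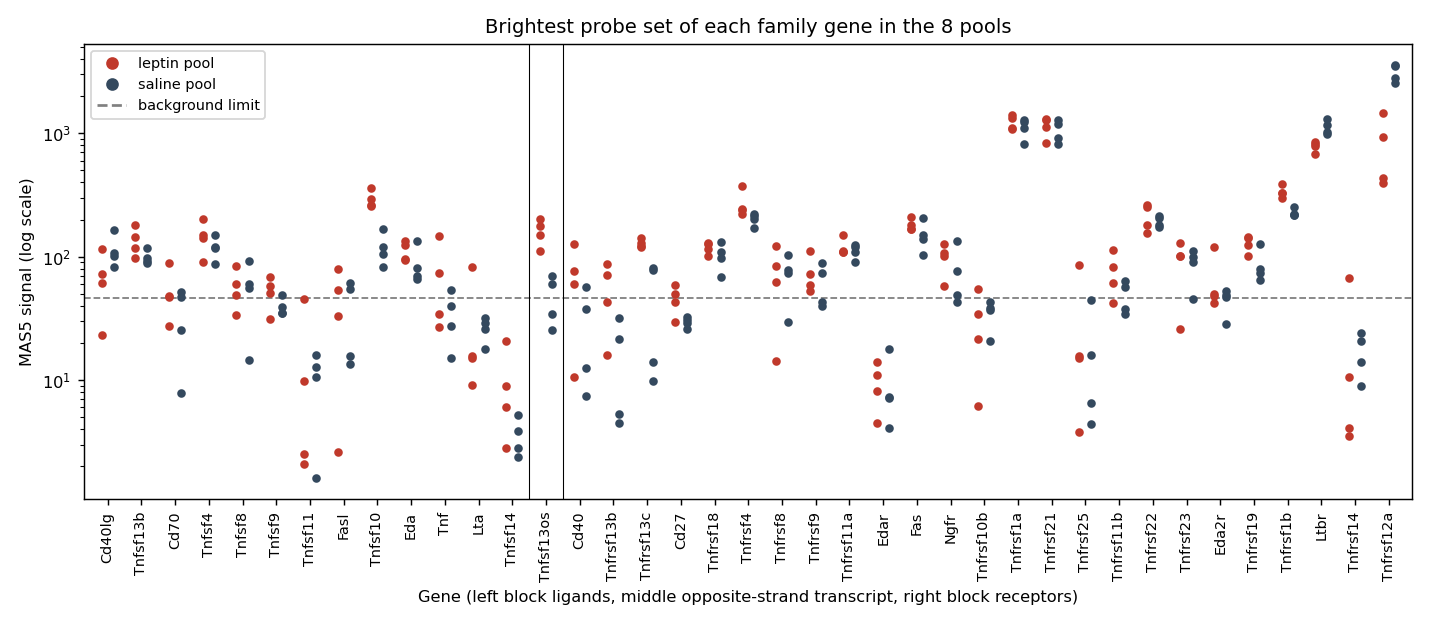
MAS5 signal on a log scale of the brightest probe set of each of the 39 family genes, with 1 point for each of 4 leptin pools (red, left) and 4 saline pools (dark, right). Ligands, the opposite-strand transcript and receptors stand in 3 blocks, and the dashed line is the background limit of 46.0. Of the 39 genes 15 have a probe set above the line in all 8 pools, and Tnfrsf12a separates the treatments far above it.

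Among the receptors, Tnfrsf12a showed the largest change of any tested member. It encodes Fn14, the small receptor for the ligand TWEAK (Tnfsf12), and is known to be induced by growth factors and tissue injury. Probe set 1418571_at had signals of 434, 391.8, 1462 and 931 in leptin pools 5 to 8 and of 2552, 2804, 3502 and 3597 in saline pools 1 to 4. Leptin pool 7 was the highest of its treatment and still lay well below every saline pool. The mean was 805 ± 502 in leptin pools and 3114 ± 515 in saline pools (SD, n = 4 each).

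Probe set 1418572_x_at of the same gene had 249, 503, 733 and 599 in leptin pools and 2467, 2437, 3047 and 2867 in saline pools. Leptin pool 7 was again the highest of its treatment, and no pool overlapped. The log2 fold changes were -2.14 ± 0.33 and -2.45 ± 0.25 for the 2 probe sets, or 4.40-fold and 5.47-fold lower with leptin (limma adjusted p = 0.0022 and 8.9e-05). Leaving out each pool in turn gave -2.49 to -1.86 for the first and -2.65 to -2.14 for the second, and both stayed past the threshold in all 8 of these fits.

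With the actin ratio as a covariate the change was -1.41 for 1418571_at (limma adjusted p = 0.0931) and -1.71 for 1418572_x_at (0.0043). Both changes were smaller in that fit, which ended the call of the first and left the second called. The actin ratio was 2.17, 1.84, 1.67 and 1.88 in leptin pools 5 to 8 and 1.498, 1.66, 1.68 and 1.55 in saline pools 1 to 4. In the same order the signals for 1418571_at were 434, 391.8, 1462 and 931 in leptin pools and 2552, 2804, 3502 and 3597 in saline pools. The lowest ratio went with the highest signal among leptin pools (pool 7) and with the lowest signal among saline pools (pool 1). The part of RNA quality in this change was not tested beyond the covariate fit. The name of 1418572_x_at carries the array maker's mark for probes that can match other transcripts, so its value is less certain than that of 1418571_at.

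Ltbr encodes the lymphotoxin beta receptor, which directs lymphoid tissue formation and is carried by stromal and epithelial cells. It had 792, 677, 825 and 847 in leptin pools and 1173, 992, 1302 and 1030 in saline pools. The treatments did not overlap, and the log2 fold change was -0.51 ± 0.13 (limma adjusted p = 0.0293). The call was lost without saline pool 1, saline pool 3, leptin pool 5 or leptin pool 6 (limma adjusted p up to 0.0905), under quantile scaling (0.0661), without the mean-variance trend (0.0684) and with the actin covariate (0.162). The log2 fold change stayed between -0.57 and -0.44 with each pool left out, and was -0.44 under quantile scaling, -0.51 without the trend and -0.52 with the covariate. Its ligand subunit gene Ltb was higher with leptin in the values above, while Ltbr was lower.

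In the gallbladder epithelium list 3 of 8 tested markers fell (Krt7, Krt8 and Krt18), and 4 had an unadjusted p under 0.05 by limma. The summed signal of the 8 markers was 33920 to 38270 in leptin pools and 40320 to 50140 in saline pools, without overlap, and none was under background in all pools. The keratins carried this difference, with Krt19 at 0.76-fold also below without overlap though short of the threshold (limma adjusted p = 0.0506). Epcam, Cdh1, Sox17 and Muc1 overlapped between treatments, at 0.996-fold, 0.887-fold, 0.953-fold and 1.02-fold, leptin over saline. Of 4 adipocyte markers 1 fell, Cidec, at 129 to 252 in leptin pools and 393 to 818 in saline pools, 4.07-fold lower (limma adjusted p = 5.2e-04), and 3 had an unadjusted p under 0.05. Lep (-1.94 on the log2 scale), Fabp4 (-0.76) and Adipoq (-0.27) did not pass, and the summed signal of the 4 overlapped, at 3062 to 5174 in leptin pools and 3247 to 11260 in saline pools. The part of these markers in the values of Tnfrsf12a and Ltbr was not tested.

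TNF itself binds the receptors encoded by Tnfrsf1a and Tnfrsf1b. Tnfrsf1a, the widely expressed death-domain receptor, had signals of 1331, 1085, 1417 and 1097 in leptin pools and 1292, 1113, 1228 and 826 in saline pools, which overlapped. Its log2 fold change was 0.15 ± 0.15, with a 95% interval of -0.17 to 0.48 (limma adjusted p = 0.578). Tnfrsf1b, the TNF receptor found mainly on leukocytes and endothelium, had 299.5, 389, 327 and 325 in leptin pools and 217, 251, 223 and 219 in saline pools on probe set 1418099_at, without overlap.

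The Tnfrsf1b rise was 0.54 ± 0.14 on the log2 scale, or 1.45-fold (limma adjusted p = 0.0385). This call was lost when any 1 of the 8 pools was left out (limma adjusted p = 0.0516 to 0.109), while the fold change stayed between 0.47 and 0.59. It was also lost under quantile scaling (0.0804), with median centring (0.0637), without the brightness filter (0.0622) and with the actin covariate (0.173), at log2 fold changes of 0.46, 0.46, 0.54 and 0.59. The second Tnfrsf1b probe set, 1448951_at, was at 36.7 to 142 in leptin pools and 80.0 to 194 in saline pools, with a log2 fold change of -0.33 ± 0.38 (limma adjusted p = 0.638), and so differed in sign. That sign rested on leptin pool 7, without which it was 0.057. A difference between Tnfrsf1a and Tnfrsf1b in their response was not tested.

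Of 10 macrophage markers on the array 9 were tested and 7 rose. Their summed signal was 10370 to 11800 in leptin pools and 4906 to 6125 in saline pools, without overlap, and none was under background in all pools. Of the neutrophil markers 3 of 3 tested rose (summed signal 2028 to 3900 in leptin pools and 306 to 500.7 in saline pools). Of the mast cell markers 3 of 5 rose (849 to 1106 in leptin pools and 568 to 707 in saline pools). Of the dendritic cell markers 1 of 2 tested rose (554 to 637 in leptin pools and 170.4 to 318 in saline pools), and Ccr7 was under background in all 8 pools. The 1 that rose, Itgax, reached the brightness filter only through its leptin pools, with 49.7 to 108 in saline pools. The T and NK cell list, with 8 markers on the array, had 3 tested, of which 0 passed by limma and 2 had an unadjusted p under 0.05, with summed signals of 993 to 1347 in leptin pools and 815 to 950.0 in saline pools. The part of these cell types in the Tnfrsf1b and Tnfsf10 values was not tested.

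The remaining death-domain receptors did not pass. Fas, the receptor of Fasl, had 168, 182, 167 and 210 in leptin pools and 103, 207, 139 and 151 in saline pools, with a log2 fold change of 0.30 ± 0.21 (limma adjusted p = 0.423). Tnfrsf21, which encodes death receptor 6, was read by 2 tested probe sets. The brighter of them overlapped, at 0.11 ± 0.17 (limma adjusted p = 0.746). The other, 1422740_at, had 543, 832, 1224 and 740 in leptin pools and 620, 519, 553 and 734 in saline pools, at 0.41 ± 0.21 (limma adjusted p = 0.259), and it passed only with the actin covariate (1.08, adjusted p = 0.0095). Ngfr, the low-affinity neurotrophin receptor, was not tested and was at 58.1 to 126 in leptin pools and 42.6 to 135 in saline pools on its brightest probe set. Tnfrsf25, the receptor DR3 of T cells, was at 3.80 to 85.3 in leptin pools and 4.40 to 44.8 in saline pools. Edar, the ectodysplasin receptor, was under background in all 8 pools, which makes it, with Tnfsf11 and Tnfsf14, 1 of 3 family genes with no signal above the limit in any pool.

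Receptors of T cell help, decoys and ectodermal receptors also gave no call. Tnfrsf4, or OX40, had a log2 fold change of 0.37 ± 0.19 (limma adjusted p = 0.249) and Tnfrsf18, or GITR, 0.23 ± 0.24 (0.604). Cd27, the receptor of Cd70, was at 29.5 to 59.2 in leptin pools and 25.8 to 32.2 in saline pools and was not tested. The lymphocyte activation receptors Tnfrsf8 (CD30) and Tnfrsf9 (4-1BB) were not tested either, with overlapping pools. Tnfrsf22, a mouse decoy receptor for TRAIL, was at 0.11 ± 0.19 on its brighter probe set (limma adjusted p = 0.781) and 0.29 ± 0.26 on the other (0.539), and Tnfrsf23, another such decoy, was not tested. Tnfrsf11b, which encodes osteoprotegerin, the decoy receptor of RANKL, was at 42.3 to 112 in leptin pools and 34.4 to 63.1 in saline pools and was not tested.

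Tnfrsf11a, or RANK, was at 0.10 ± 0.21 (limma adjusted p = 0.815). Tnfrsf19, a receptor of developing and regenerating epithelia, had 145, 101, 142 and 125 in leptin pools and 73.9, 126, 64.9 and 79.3 in saline pools, at 0.56 ± 0.25 (limma adjusted p = 0.201). Only saline pool 2 reached into the leptin range there. Eda2r, a second ectodysplasin receptor, was at 42.4 to 120.5 in leptin pools and 28.5 to 52.4 in saline pools and was not tested. Tnfrsf14, the LIGHT receptor, was above background only in leptin pool 6.

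**Figure D3:**
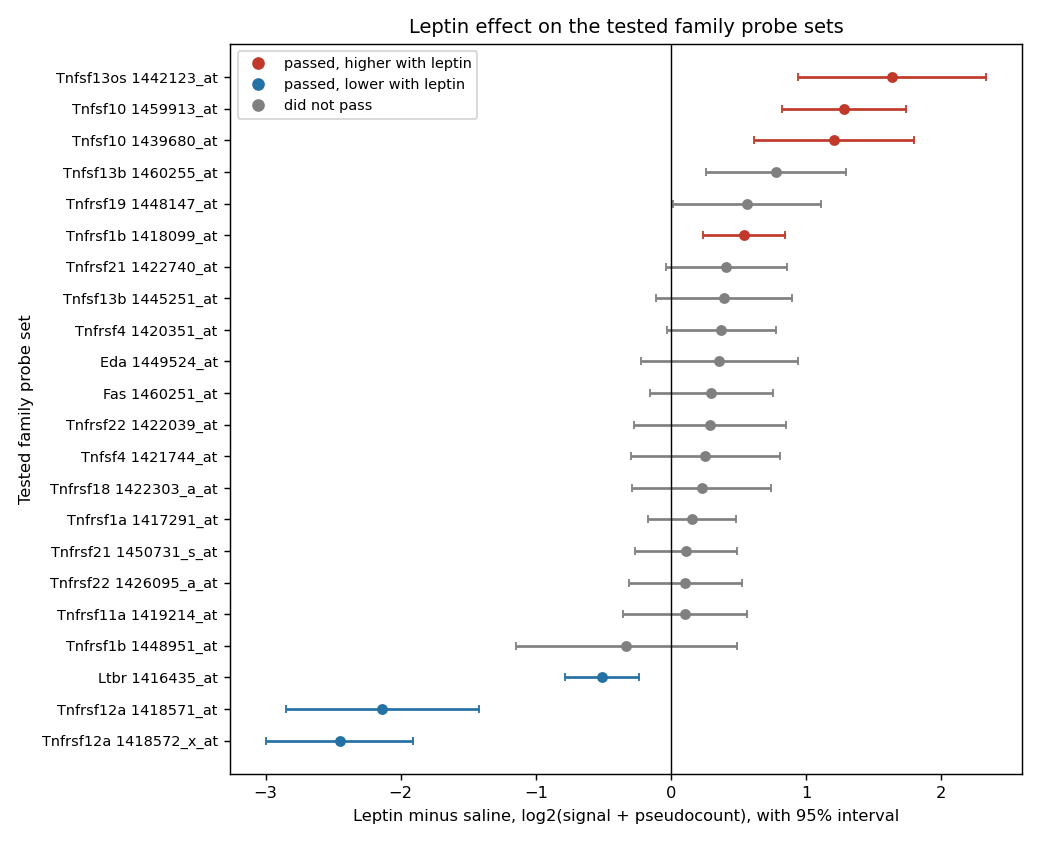
Log2 fold change, leptin minus saline, with its 95% interval (horizontal axis) for the 22 tested family probe sets (rows, sorted by value). Red and blue mark those that passed an adjusted p of 0.05 higher and lower with leptin, and grey those that did not. Both Tnfrsf12a intervals end at or below -1.42, and of the 15 grey probe sets 14 were fitted above 0.

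The 46 untested members comprised all probe sets of 23 genes and further probe sets of tested genes. Of all 68 probe sets 13, all of them untested, were under 46.0 in all 8 pools, and 19, all of them tested, were above it in all 8. The highest signal of an untested member was 164, for Cd40lg in saline pool 3. In the fit without the brightness filter 0 of the 46 passed by limma, against 2.63% of all probe sets, and 6 had an unadjusted p under 0.05. That share covers bright probe sets too, while the 46 are dim. No share was counted for dim probe sets alone or for the unadjusted p. Over all 68, leptin pools lay wholly above saline pools in 6 and wholly below in 4, against 6.77% and 4.07% of all probe sets. Together these were 14.7%, against 10.8%.

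Promoter sequence from RefSeq (GRCm38.p6) was at hand for 30 of the 39 genes. The 250 bases before the start of the 4 called protein-coding genes are shown because these are the members whose RNA changed, 5′ to 3′ on the gene's strand. Capitals mark matches on either strand to 4 patterns: NF-kB (GGG, any 2 bases, TTTCC), AP-1 (TGANTCA), STAT (TTCNNNGAA) and the interferon-stimulated element (GAAA, any 2 bases, GAAA). The Tnfrsf12a window is chr17:23677450-23677699 (minus strand), that of Tnfsf10 chr3:27316827-27317076 (plus strand), that of Ltbr chr6:125313886-125314135 (minus strand) and that of Tnfrsf1b chr4:145246871-145247120 (minus strand).
Tnfrsf12a: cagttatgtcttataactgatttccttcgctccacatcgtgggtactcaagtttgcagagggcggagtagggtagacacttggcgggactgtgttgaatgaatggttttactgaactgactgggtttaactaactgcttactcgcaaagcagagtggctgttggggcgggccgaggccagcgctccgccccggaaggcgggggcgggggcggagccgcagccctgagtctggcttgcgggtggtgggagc
Tnfsf10: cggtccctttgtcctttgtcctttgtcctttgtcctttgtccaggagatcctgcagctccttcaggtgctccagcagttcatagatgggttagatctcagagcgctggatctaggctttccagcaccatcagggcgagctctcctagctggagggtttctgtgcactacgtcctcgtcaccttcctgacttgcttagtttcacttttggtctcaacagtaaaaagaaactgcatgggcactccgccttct
Ltbr: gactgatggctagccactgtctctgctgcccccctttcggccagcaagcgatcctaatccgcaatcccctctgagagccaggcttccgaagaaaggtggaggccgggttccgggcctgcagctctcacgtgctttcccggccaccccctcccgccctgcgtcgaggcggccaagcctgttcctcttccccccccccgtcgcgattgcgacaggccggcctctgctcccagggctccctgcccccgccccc
Tnfrsf1b: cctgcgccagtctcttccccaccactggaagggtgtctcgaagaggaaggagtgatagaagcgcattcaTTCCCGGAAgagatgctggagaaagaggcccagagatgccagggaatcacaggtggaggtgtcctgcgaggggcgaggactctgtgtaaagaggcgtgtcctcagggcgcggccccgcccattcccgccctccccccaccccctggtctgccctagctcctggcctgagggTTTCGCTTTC

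Of these 4 windows only that of Tnfrsf1b held a match to a marked pattern. It had the STAT pattern as TTCCCGGAA from 181 to 173 bases before the start, and the interferon-stimulated pattern as TTTCGCTTTC, on the other strand, in the last 10 bases. Among the 32851 windows of this length in the table, 7.02% held the STAT pattern, 2.98% the interferon-stimulated pattern, 6.75% AP-1 and 1.41% NF-kB. Among the 34 windows of the 30 family genes, 7 held the STAT pattern, 3 the interferon-stimulated pattern, 5 AP-1 and 2 NF-kB. A looser NF-kB pattern (GGG, any 5 bases, CC) was in 45.8% of all windows and in 24 of the 34 family windows (70.6%), and was not marked. It occurred once in the Ltbr window, in 2 places in that of Tnfrsf12a, in 3 in that of Tnfrsf1b and nowhere in that of Tnfsf10. Tnfsf13b, whose RNA did not pass, held the AP-1 and the interferon-stimulated patterns. The patterns overlapped nowhere in the sequences shown.

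Genes that carry or restrain the signals of these receptors formed a list of 68. The array read 57 of them by a single-symbol probe set, and 50 were bright enough to test. Of these 50, 6 rose and 3 fell, with a median log2 fold change of 0.032, and 8.27% of all tested genes passed. In all 20 of the 50 had an unadjusted p under 0.05, a level for which no share over the array was counted. Tnfaip2, a gene induced by TNF, had 818, 1154, 738 and 947 in leptin pools and 202, 216, 271 and 264 in saline pools, a rise of 1.89 ± 0.16 on the log2 scale (limma adjusted p = 1.9e-05). Nfkbiz, an inducible nuclear regulator of NF-kB, had 849, 829, 935 and 776 in leptin pools and 420, 303, 340 and 461 in saline pools, a rise of 1.15 ± 0.15 (5.3e-04). In both genes the treatments were far apart.

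Nfkbia, the inhibitor IkB alpha, had a mean signal of 5457 ± 200.1 in leptin pools and 4093 ± 138 in saline pools (SD, n = 4 each), a rise of 0.41 ± 0.084 (limma adjusted p = 0.0112). The adaptor gene Tnip1, whose product works with A20 to restrain NF-kB, rose by 0.62 ± 0.12 (0.0090). Tnfaip8, a TNF-induced gene, rose by 0.87 ± 0.19 (0.0179), and its call was lost without saline pool 2 or leptin pool 5 (up to 0.0581), under quantile scaling (0.0553) and with the actin covariate (0.270), at 0.63 to 0.85 on the log2 scale. The adhesion molecule gene Vcam1 rose by 0.53 ± 0.15 with overlapping pools (0.0480), and the call needed saline pools 2, 3 and 4 and leptin pools 5, 6 and 7 (adjusted p up to 0.117 without each). It was also lost with median centring (0.0772), without the brightness filter (0.0705) or the mean-variance trend (0.0996), and with the actin covariate (0.202), where the change was 0.55.

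Ccnd1, the cyclin D1 gene, had 2552, 1940, 2565 and 2165 in leptin pools and 3609, 3445, 3645 and 4317 in saline pools, a change of -0.71 ± 0.12 (limma adjusted p = 0.0037). Ier3, a survival gene induced early by many stimuli, changed by -0.85 ± 0.16 (0.0078). Timp3, which inhibits the TNF-shedding protease encoded by Adam17, changed by -0.70 ± 0.16 with overlapping pools (0.0226). Its call was lost without saline pool 3, saline pool 4, leptin pool 5, leptin pool 6 or leptin pool 8 (up to 0.0687), under quantile scaling (0.0711), without the mean-variance trend (0.0660) and with the actin covariate (0.229), at -0.70 to -0.56 on the log2 scale. With that covariate the calls of Nfkbia (0.0939), Ier3 (0.0939) and Ccnd1 (0.0517) were lost too, while their log2 fold changes were 0.42, -0.82 and -0.70. Nfkbia also lost its call without the mean-variance trend (0.0642).

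By arm, 2 of the 11 tested genes listed with the adaptors rose, Tnip1 and the TNF-induced gene Tnfaip8. The receptor adaptors Traf2, Traf4, Traf5, Traf6, Tradd and Fadd did not pass. Of 7 NF-kB subunits and inhibitors 2 rose, 1 of 4 shedding genes fell, and of 7 target genes 2 rose and 2 fell. In the caspase arm 0 of 7 tested genes passed by limma, with 3 at an unadjusted p under 0.05, and among the kinases 0 of 9, with 2. The medians of these arms were 0.010 and -0.054. Of 3 deubiquitinase genes 0 passed, and 0 had an unadjusted p under 0.05. Edaradd, the adaptor of the ectodysplasin receptor, was not tested and had 49.0, 108, 107 and 12.9 in leptin pools and 81.3, 69.0, 58.5 and 61.8 in saline pools.

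**Figure D4:**
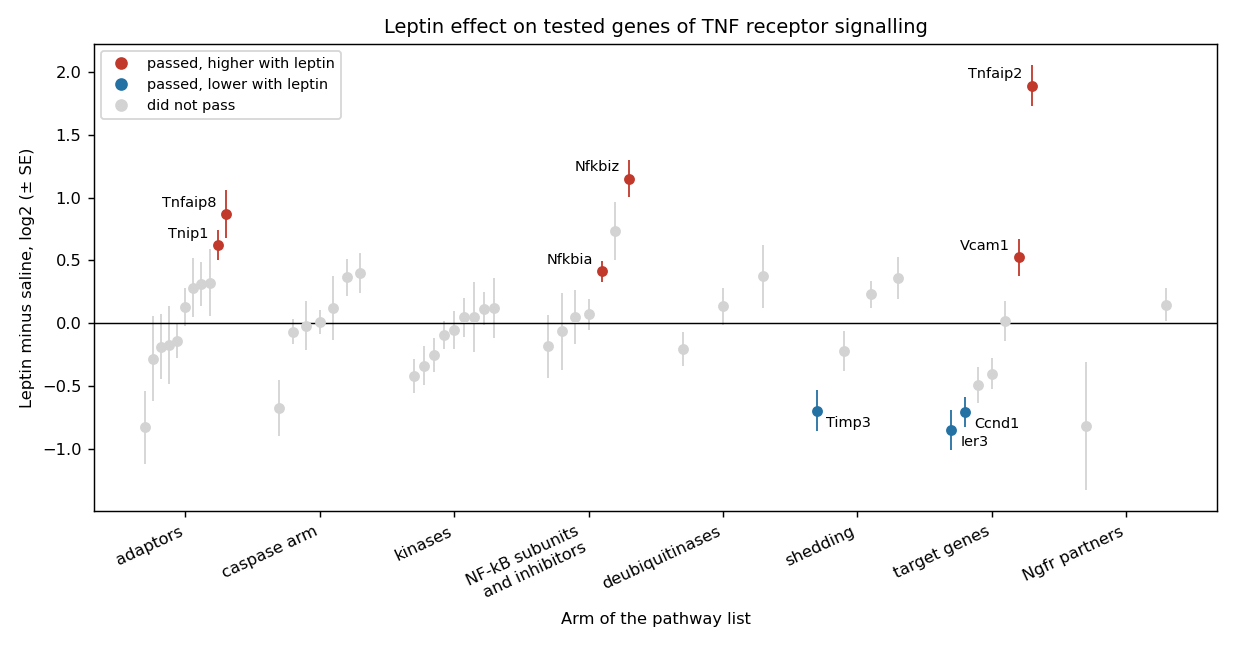
Log2 fold change, leptin minus saline, with its SE (vertical axis) for the 50 tested genes of TNF receptor signalling, grouped by arm and sorted within it. Named red and blue points passed an adjusted p of 0.05 higher and lower with leptin, and grey points did not. Tnfaip2 and Nfkbiz stand highest, and Ccnd1, Ier3 and Timp3 are the 3 that passed below 0.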

How the data were processed

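The authors deposited MAS5 signals, which are intensities on a linear scale, 1 for every probe set of each array. The submitters' processing notes name MAS5. Which version was run, the detection calls and the scan dates are not stated in the labels used here, so no batch could be examined. Each array was rescaled to a common 2% trimmed mean, and values were analysed as log2(signal + 8.2), with 8.2 being the 10th percentile of all signals. Dim genes therefore have understated fold changes. After removal of 64 control probe sets, the brighter 22519 (mean log2 value no lower than the median) entered the test. Leptin pools were set against saline pools (n = 4 each) with lmFit and trended eBayes of limma 3.58.1 (R 4.3.3), two-sided, and p-values were adjusted by Benjamini-Hochberg across those probe sets. The procedure was tested on simulated data. Precision is limited by the number of arrays and by signal over background.

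Gene symbols came from the annotation of the array, with 34754 updated through Entrez identifiers to the RefSeq gene table of GRCm38.p6. Every member that passed is described in full, other tested members by their fold changes and untested members by their signals, with pathway and marker genes read from their brightest probe set. Alternatives changed the array scaling, pseudocount, brightness filter, variance model, array weights, the actin ratio as covariate, and the pools included. The members, lists and alternatives were chosen with earlier results of these data known, and median centring over all probe sets was added after seeing the data.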

Additional observations from a re-analysis of the deposited data

Results flagged for a closer look

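In each of the 22 tested family probe sets, and in each treatment, the highest and lowest pool were compared with the other 3 by Dixon's gap ratio, which gave 44 comparisons. The ratio exceeded its 95% critical value for 4 samples in 1, where chance gives about 1 in 20. That was Tnfrsf11a on probe set 1419214_at, where leptin pool 5 had a signal of 149.7 against 108 to 111 in the other leptin pools, a gap ratio of 0.925. Without that pool the log2 fold change of Tnfrsf11a was -0.0040, and with it 0.10.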

How the results depend on the processing

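No paired analysis was possible because no pool number is shared between treatments. Both Tnfrsf12a probe sets kept their direction in all alternatives, and the Tnfsf10 probe set 1459913_at kept its call in all that tested it. The count of members higher with leptin was 4, and it was 2 under quantile scaling, 1 with the brightness filter at the 75th percentile (7 members tested), 2 with the actin covariate, and 1 to 3 with each pool left out. The 2 with the actin covariate were Tnfsf10 and Tnfrsf21, of which Tnfrsf21 had not passed in the main fit. The count was 2 without saline 4 or leptin 6 and 1 without leptin 5 or leptin 8. The count lower was 3, and it was 1 with the actin covariate and 2 to 3 with each pool left out. Pathway genes higher numbered 6, and 3 with the actin covariate or with median centring over all probe sets, an alternative chosen after seeing the data. Pathway genes lower numbered 3. All 3 lost their call with the actin covariate, where 1 gene that had not passed before was called lower. The number lower was 6 with median centring and 10 with median centring over all probe sets. That last centring moved the median of all tested probe sets from 0.039 to -0.21, and of 3992 calls over the array 10.2% were then higher, against 51.1% of 1561; with centring over tested probe sets 31.9% of 1941 were. Calls over the array numbered 654 with the actin covariate and 884, 892, 943, 985 and 1028 without leptin 6, saline 2, saline 4, leptin 8 and leptin 5.

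Signs turned only for changes that had not passed, and the cause was not tested. Under quantile scaling Tnfrsf11a was at -0.13 and Tnfrsf22 (1426095_a_at) at -0.013. With median centring over all probe sets Tnfrsf11a was at -0.15, Tnfrsf18 at -0.023, Tnfrsf1a at -0.096, Tnfrsf21 (1450731_s_at) at -0.14 and Tnfrsf22 (1426095_a_at) at -0.14, and Tnfrsf1b lost its call at 0.29 (limma adjusted p = 0.205), as did Vcam1 (0.28, 0.284), Nfkbia (0.16, 0.274) and Tnip1 (0.37, 0.0814). With the actin covariate Tnfrsf11a was at -0.20. With each pool left out, Tnfrsf11a lay between -0.004 and 0.16, Tnfrsf1b (1448951_at) between -0.52 and 0.057, Tnfrsf21 (1450731_s_at) between -0.0031 and 0.25 and Tnfrsf22 (1426095_a_at) between -0.0016 and 0.24.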
